A study of Mus musculus with 12 samples.

Results

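The mouse miRNAs with the highest catalogue numbers on the array, miR-1000 and above, were followed in bone marrow cultures that were differentiating into osteoclasts. Members were chosen by name alone: mouse entries numbered 1000 or higher, with any letter, arm or release suffix, and with names ending in * left out. The rule took 113 of 696 mouse entries, of which 15 carried the suffix _v15.0 or _v16.0 and 98 did not, and the star names left out were 3. The lowest-numbered members were miR-1186 (detected on 1 array), miR-1186b (on 0), miR-1187 (on 11) and miR-1188 (on 1), and the nearest entries outside were the 4 arms of miR-883a and miR-883b, of which miR-883a-5p was detected on 2 arrays and the others on 0.

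The cultures came from long-bone marrow of male C57BL/6 mice aged 6 to 8 weeks, depleted of cells bearing B220 (B lymphocytes) or CD3 (T lymphocytes). All were grown with M-CSF, which keeps myeloid precursors alive, and RANKL, which drives them to become osteoclasts, each at 30 ng/ml. At each of the 3 time points (days 1, 3 and 5) 4 separate cultures were taken, and their RNA was labelled with Cy3 and put on 12 one-colour Agilent miRNA arrays. No culture without RANKL and no day before the cytokines was among the groups, so each comparison is between days of 1 protocol. The arrays of days 1 and 5 lay on 1 slide with 1 scan and those of day 3 on another. Day 3 and its slide therefore cannot be told apart. Day 5 against day 1 is a comparison within a slide, but the day 1 arrays lay in row 1 of that slide and the day 5 arrays in row 2. Day and slide row thus cannot be told apart in that comparison.

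A miRNA is cut from a hairpin precursor by Drosha with its partner DGCR8 and then by Dicer, and the arm that is loaded into an Argonaute protein finds its target mRNAs mainly through the seed near its 5′ end. Catalogue numbers were given in order of submission, so that high numbers mostly go to entries found late, many of them by sequencing and with little conservation between species. Some entries of this kind were later withdrawn when their reads were found to come from other abundant RNAs such as ribosomal or transfer RNA. What the release suffix stands for is not stated in the sources used here.

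Mature sequences that end with the letters paired by all probes of the member were found in RefSeq (mouse build GRCm38.p6) for 71 of the 113 members, including 26 of the 56 that were detected. No seed (bases 2 to 8, in capitals below) was shared among the 71. The first set holds members called lower at day 5 than at day 1, in no order of size, since some of their changes are bounds. Most of their 3′ parts are rich in G. The stretch paired by the longest probe had less G in miR-3472 (33.3%) and miR-1187 (36.8%).
miR-3474: cCCUGGGAggagacguggauuc
miR-1967: uGAGGAUCcuggggagaagaugc
miR-1306-3p: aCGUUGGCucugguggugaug
miR-3472: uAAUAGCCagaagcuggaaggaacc
miR-3099: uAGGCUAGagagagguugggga
miR-1894-3p: gCAAGGGAgagggugaagggag
miR-1896: cUCUCUGAuggugggugaggag
miR-1892: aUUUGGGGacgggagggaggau
miR-2137: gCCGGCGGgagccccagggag
miR-1224: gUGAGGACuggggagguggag
miR-1187: uAUGUGUGuguguauguguguaa
miR-1895: cCCCCGAGgaggacgaggagga

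The second set holds members that were not called between days 1 and 5, and miR-1983, which was detected at days 3 and 5 but not at day 1. A G-rich 3′ part is seen here too, in miR-2861, with 70% G in the stretch paired by its longest probe.
miR-1839-5p: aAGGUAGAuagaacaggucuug
miR-1198-5p: uAUGUGUUccuggcuggcuugg
miR-1897-3p: uCAACUCGuucuguccggugag
miR-2861: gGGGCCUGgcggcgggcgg
miR-1983: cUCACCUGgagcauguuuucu

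For suffixed members the sequence shown is that of the longest array probe, which is the reverse complement of the 3′ part of the RNA it was built to catch. Capitals mark TGG at the 5′ end of a probe, which pairs with CCA at the 3′ end of the RNA. The probe of miR-1897-5p, the arm that goes with miR-1897-3p above, is given with them.
miR-2132_v15.0: catcgcgtcaacacc
miR-2134_v15.0: gcaccccgtttcc
miR-2138_v15.0: attccgccaagccc
miR-2145_v16.0: aaccaggcccgacc
miR-2146_v15.0: cacatggaacccttct
miR-1939_v16.0: gtgcattggcaggg
miR-1937b_v16.0: TGGgggctcgtcc
miR-1937c_v16.0: TGGgggctcttccg
miR-1897-5p: ccccctctttctcca

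Probes starting with TGG were found for 9 of 696 mouse entries (1.29%) and for 3 of the 113 members, which were miR-1937b_v16.0, miR-1937c_v16.0 and miR-5097. Mature transfer RNAs end in CCA, and whether these probes caught such RNA was not tested. More than 1 place in mouse build mm9 was listed for the probes of 5 of the 15 suffixed members, 6 of the 98 unsuffixed members and 60 of the 583 other entries. For miR-1937b_v16.0 and for miR-2134_v15.0 the listed places numbered 6 each.

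In GRCm38.p6, 50 of the 71 matched members lay within the bounds of a protein-coding gene, with the strand of that gene not compared. The mature miR-1306-3p lay at chr16:18284248-18284268 on the minus strand, inside the bounds of Dgcr8, the gene of the Drosha partner named above. The mature miR-1224 lay at chr16:20604452-20604472 on the plus strand, inside the bounds of Vwa5b2. The mature miR-1897-3p, at chr3:34638511-34638532 on the plus strand, and miR-1983, at chr13:21896930-21896950 on the minus strand, lay within no protein-coding gene.

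The number of members that the scanner software marked as detected differed widely between the suffixed and unsuffixed names. Of the 15 suffixed members, 14 (93.3%) were detected on at least 1 array and 13 on all 12 arrays. Of the 98 unsuffixed members, 42 (42.9%) were detected on at least 1 array and 12 on all 12, and among the 583 other mouse entries 278 (47.7%) were detected at least once. In all, 56 members were detected somewhere and 57 nowhere, the only suffixed one among the latter being miR-1959_v16.0. The suffix did not go with high detection among lower numbers, where 3 of 8 suffixed entries were detected. These are counts of named entries, not of replicates, and no test was made on them.

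**Figure D1:**
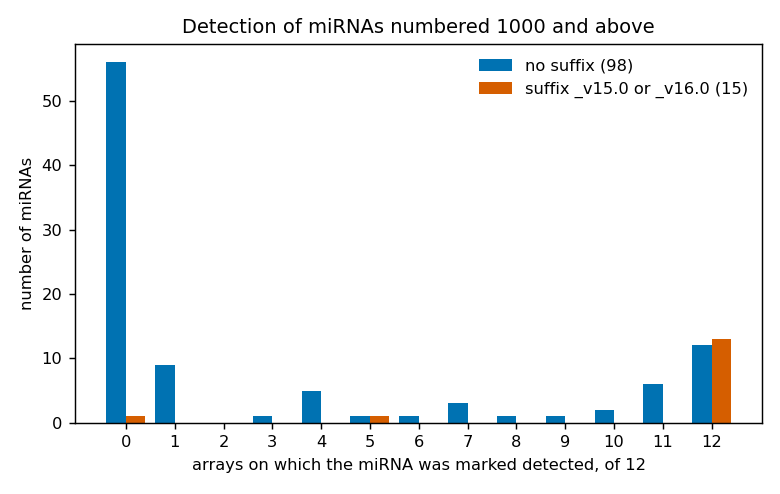
The number of miRNAs numbered 1000 and above (y axis) by the number of arrays, from 0 to 12, on which each was marked detected (x axis), for the 98 names without a suffix in blue and the 15 with one in orange. The blue bars stand mainly at 0 (56 miRNAs), 1 (9) and 12 (12), and the orange bar stands at 12 (13).

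Detection thinned out after day 1. Each day 1 array detected from 45 to 52 members, each day 3 array from 34 to 36 and each day 5 array from 27 to 39. The lowest of these counts was on day 5 replicate 4, where 186 miRNAs of any name were detected against 248 to 269 on the other day 5 arrays. Members made up 18.0% to 19.3% of all detected miRNAs at day 1 and 14.5% to 15.3% at day 5.

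Of the 56 detected members, 25 were detected on all 12 arrays and 6 on every array of days 1 and 3 and on 3 arrays of day 5. Detection on all 4 arrays of day 1 and nowhere else was found for miR-1940, miR-1966, miR-1967, miR-3107 and miR-3474. A further 9 members were detected on a single array. Of these, 8 were detected on day 1 replicate 2 alone, with signals of 59.1 to 176 units, and that array had the most miRNAs detected (276). The last, miR-1981, was detected on day 5 replicate 2, at 42.9 units.

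Signals are given as the total signal of a miRNA, the brightness summed over its probes after background subtraction, in arbitrary scanner units and before normalization between arrays unless stated. A value below 0 means that a spot was dimmer than its background. Signals of different miRNAs come from different probes and are not compared with each other.

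Summed over the list, the members gave 34.5% to 41.6% of the miRNA signal on the day 1 arrays, 28.3% to 29.4% at day 3 and 18.1% to 20.8% at day 5, so that no array of 1 day overlapped with an array of another. The suffixed members carried most of it, with 26.7% to 31.5% at day 1, 23.6% to 25.1% at day 3 and 16.1% to 17.6% at day 5. The unsuffixed members gave 7.79% to 10.1%, 4.27% to 4.79% and 2.02% to 3.18% on the same days. The sums run over different probes, so these are shares of signal and not of RNA amount. Several members were saturated at day 1, miR-2141_v15.0 also on 2 arrays of day 3, and miR-1937b_v16.0 on every array. The shares are therefore not exact on any day. Fewer cells that express a miRNA and less of it per cell cannot be told apart in RNA from whole cultures.

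**Figure D2:**
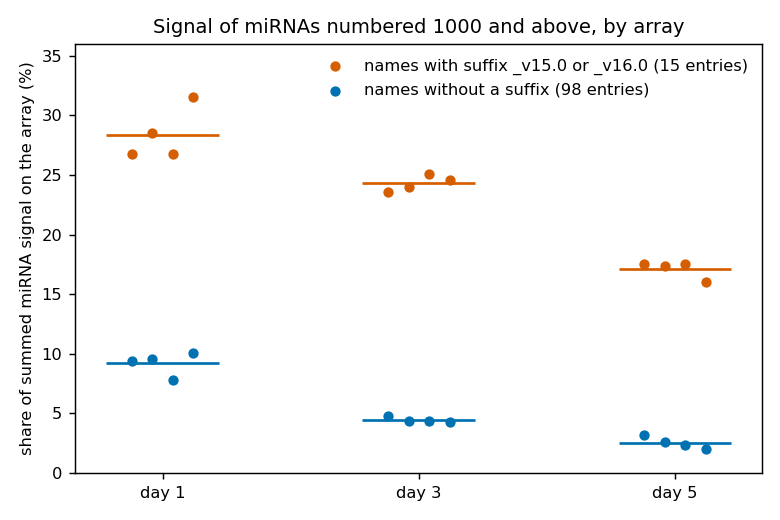
Share of the summed miRNA signal of each array, in percent (y axis), that came from the 15 suffixed members (orange) and the 98 unsuffixed members (blue) at days 1, 3 and 5. Each point is 1 array and each line the mean of 4 arrays, and both groups of points step down from day 1 to day 5.

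Changes between days were tested with limma on quantile-normalized log2 signals, over the 334 mouse entries with a detection mark on 1 array or more. A miRNA was called when its adjusted p (Benjamini-Hochberg over the 334) was under 0.01 and its day means differed by more than 2-fold. Between days 1 and 5, 29 of the 56 members tested were called lower and 3 higher, where 22.5% of all miRNAs tested were called lower and 24.3% higher. A large share of falls was not confined to the members. Of the 28 tested entries without a star that run by number from miR-671-5p to miR-770-3p, 13 (46.4%) were called lower and 2 (7.14%) higher. Of the 199 remaining tested entries without a star, 12.6% were called lower and 31.2% higher. Between days 1 and 3, 22 members were called lower and 3 higher, beside 19.5% lower and 15.6% higher among all tested (35% in either direction). Between days 3 and 5, 6 members were called lower and 0 higher, beside 4.49% lower and 5.99% higher among all tested. Over the whole course (F test and 2-fold limit), 31 members were called, 28 of them lower, where 46.7% of all tested were called, 22.8% lower and 24% higher. With no fold limit the F test passed 36 of the 56 members and 62.9% of all tested. The 4 arrays of a day stood wholly apart from those of day 1 for 37 of the 56 members at day 5, beside 62.6% of all tested, and for 35 at day 3, beside 59.6%.

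A member entered the test by being detected once, and 14 of the 56 were detected on day 1 arrays alone and had to be lower later, so these counts describe the members that passed and not all 113. The 25 members detected on all 12 arrays did not enter through a single day, and of these 10 (40%) were called lower at day 5 and 1 higher, where 10 of the 123 other miRNAs on all arrays (8.13%) were called lower and 39 higher. The median difference between days 5 and 1 was -0.70 (log2) over those 25 members and 0.46 over those 123 other miRNAs. The 123 were not split by number, so this contrast does not single out the members from the entries numbered just below them. Suffixed and unsuffixed members did not part clearly by this measure: 6 of 13 suffixed and 4 of 12 unsuffixed members on all arrays were called lower. No statistical test compares these lists, because the members are not replicates.

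**Figure D3:**
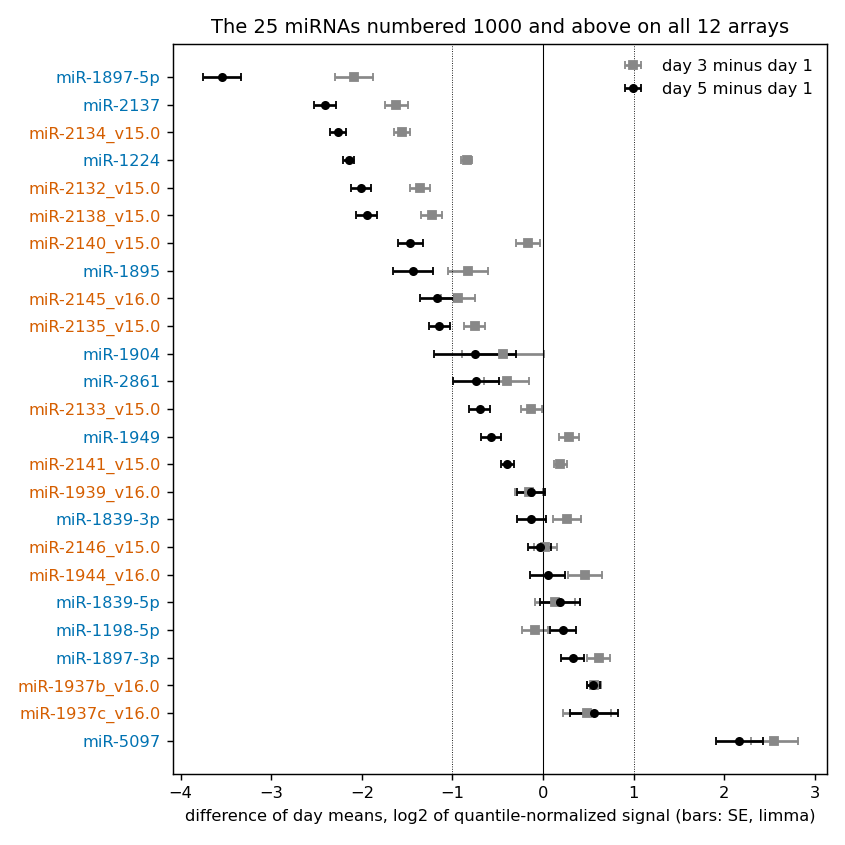
Differences between day means on the log2 scale after quantile normalization (x axis) for the 25 members detected on all 12 arrays (y axis, suffixed names in orange, others in blue), with day 3 minus day 1 as grey squares and day 5 minus day 1 as black circles. Bars are standard errors from limma and dotted lines mark 2-fold, changes of miRNAs saturated at day 1 (miR-1224, miR-2132_v15.0, miR-2138_v15.0, miR-2140_v15.0, miR-2141_v15.0 and miR-1937b_v16.0) are not exact, and the black circles run from -3.55 for miR-1897-5p to 2.17 for miR-5097.

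Members saturated at day 1 that fell were miR-1224 and 3 suffixed entries. The signal of miR-1224 was 85580, 82084, 83378 and 84191 units on the day 1 arrays, 27425, 24466, 23986 and 25420 at day 3, and 20140, 16263, 15521 and 13659 at day 5. It was saturated on every day 1 array, so after quantile normalization day 1 was at least 4.42-fold above day 5 (adjusted p = 2.19e-10, limma with Benjamini-Hochberg adjustment). Under the alternatives the day 5 minus day 1 difference was as small as -2.08 (log2). The days formed 3 separate steps with no overlap, and miR-1224 was 1 of the 6 members also called lower between days 3 and 5 (by 1.30 on the log2 scale, adjusted p = 1.83e-07, limma).

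miR-2138_v15.0 gave 85623, 82090, 83311 and 84560 units at day 1, then 23350, 19910, 19664 and 20201 at day 3, and 22567, 18200, 24304 and 17621 at day 5. Saturated at day 1, it was at least 3.85-fold lower at day 5 (adjusted p = 8.84e-08, limma), and the unscaled day 3 and day 5 signals overlapped. miR-2132_v15.0 gave 52488, 49243, 49498 and 48642 units at day 1, 11767, 9950, 9549 and 10413 at day 3, and 10985, 8675, 10581 and 8533 at day 5, which is at least 4.04-fold lower at day 5 with day 1 saturated (adjusted p = 4.03e-08, limma). In the unscaled signals both stepped down between days 1 and 3, between which the slide changed too. After normalization both also fell between days 3 and 5, short of 2-fold. The falls were 0.72 (log2, adjusted p = 0.000789, limma) for miR-2138_v15.0 and 0.66 (adjusted p = 0.000915, limma) for miR-2132_v15.0.

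miR-2134_v15.0 was below saturation throughout. Its signal was 19603, 17061, 16580 and 15375 units at day 1, 3805, 3175, 3315 and 3090 at day 3, and 3467, 2624, 3062 and 2124 at day 5. It fell by 2.26 on the log2 scale from day 1 to day 5 (SE 0.09, 4.79-fold, adjusted p = 3.27e-09, limma), with no overlap between those days.

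miR-2140_v15.0 was also saturated at day 1. Its signals were 85043, 81394, 73863 and 67799 units at day 1 (saturated on all 4 arrays), 32476, 29335, 31800 and 34997 at day 3, and 28198, 20754, 18568 and 15871 at day 5. Day 5 was at least 2.76-fold lower than day 1 (adjusted p = 3.52e-06, limma). Day 3 was at least 1.12-fold lower than day 1 (adjusted p = 0.319, limma), and with day 1 saturated the days between which most of the fall came cannot be told. It was the only suffixed member called between days 3 and 5, with a fall of 1.30 on the log2 scale (adjusted p = 6.19e-05, limma).

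The other suffixed members that were called fell less. miR-2145_v16.0 fell by 1.17 on the log2 scale (SE 0.19, adjusted p = 0.000247, limma) and miR-2135_v15.0 by 1.15 (SE 0.12, adjusted p = 6.6e-06, limma). The probes of miR-2145_v16.0 disagreed in size more than those of any other member on all arrays: before normalization the day 5 minus day 1 difference was -2.86 (log2) by 1 probe and -1.20 by the other. Over the 25 members on all arrays, all probes of a member had the same sign for 24, and the median spread between probes was 0.29 (log2).

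Several suffixed members were not called. miR-2146_v15.0 gave 18958, 17374, 20274 and 17117 units at day 1 and 20289, 14781, 16909 and 12737 at day 5, a difference of -0.04 (log2, SE 0.12, adjusted p = 0.785, limma). miR-1939_v16.0 differed by -0.14 (SE 0.15, adjusted p = 0.462, limma) and miR-1944_v16.0 by 0.05 (SE 0.19, adjusted p = 0.816, limma), and in these 3 the arrays of days 1 and 5 overlapped. The sign of each of the 3 turned under 1 alternative or more. miR-2133_v15.0 and miR-2141_v15.0 had an adjusted p under the limit but were not called, with a difference of -0.70 (log2, adjusted p = 0.000279, limma) for the former and, with day 1 saturated, a day 5 at least 1.31-fold lower (adjusted p = 0.000613, limma) for the latter. miR-3473_v15.0 was detected on all 4 arrays of day 1, on none of day 3 and on 1 of day 5. It gave 203, 235, 188 and 177 units at day 1 and 94.6, 53.6, 45.8 and -104 at day 5, with a fitted difference of -2.27 (log2, SE 0.77, adjusted p = 0.0215, limma) that passed without day 5 replicate 4 (-1.34, adjusted p = 0.00277, limma) and without day 5 replicate 1 (-2.77, adjusted p = 0.00905, limma). It also passed when only miRNAs detected on all 4 arrays of a day were fitted (-1.37, adjusted p = 0.00509, limma).

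None of the 3 entries whose probes pair with a CCA end was called lower. miR-1937b_v16.0 was saturated on all 12 arrays, at 62723 to 80415 units at day 1 and 80417 to 88313 at day 5, so no fold can be given. miR-1937c_v16.0 gave 3562, 2653, 3592 and 4015 units at day 1 and 4121, 3122, 5471 and 3198 at day 5, which overlapped (difference 0.56 on the log2 scale, SE 0.26, adjusted p = 0.0777, limma). miR-5097 rose, from 673, 606, 997 and 798 units at day 1 to 2389, 1828, 3552 and 1966 at day 3 and 3375, 2646, 3142 and 1638 at day 5.

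Every day 3 and day 5 array of miR-5097 lay above every day 1 array. The increase was 2.17 on the log2 scale at day 5 (SE 0.26, 4.49-fold, adjusted p = 2.52e-05, limma) and 2.55 at day 3 (SE 0.26, adjusted p = 1.12e-05, limma), and days 3 and 5 overlapped. It was the only member called higher among those on all 12 arrays.

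**Figure D4:**
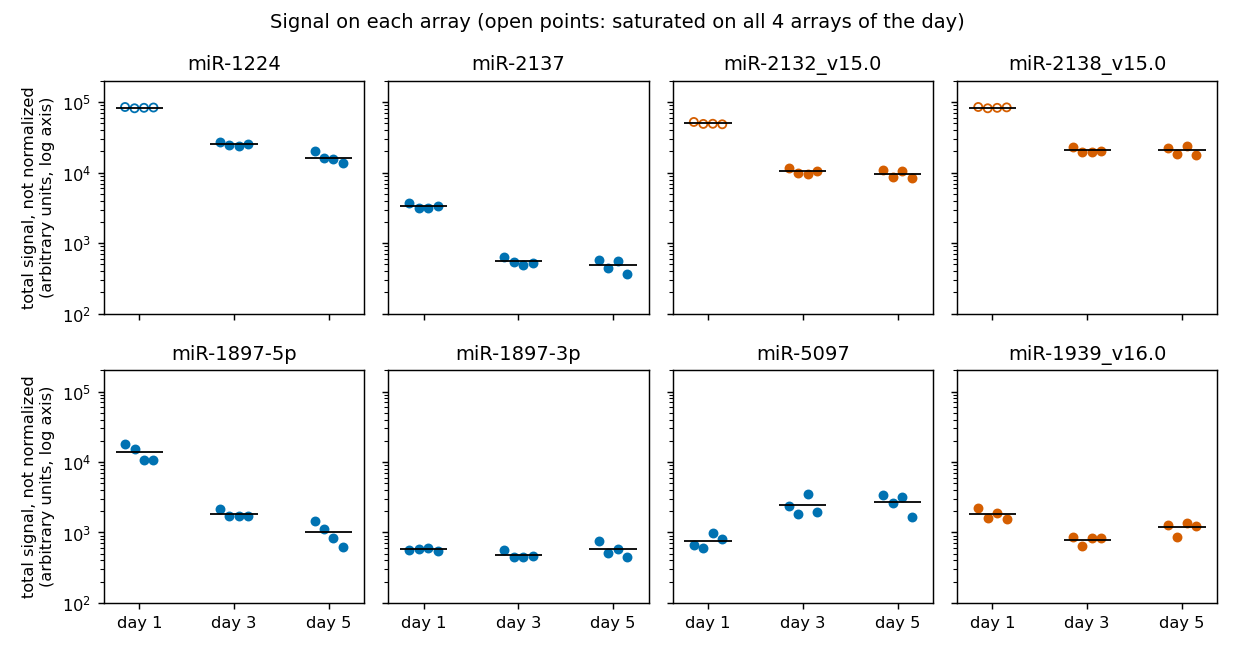
Total signal on each array, not normalized and on a log axis (y axis), at days 1, 3 and 5 for 4 unsuffixed members that changed or whose partner arm changed (miR-1224, miR-2137, miR-1897-5p, miR-1897-3p), for miR-5097, and for 3 suffixed members (orange). Each point is 1 array, lines are means of 4 arrays and open points mark days saturated on all 4 arrays, and the falls of miR-1224 (from a mean of 83808 to 16395 units) and miR-1897-5p stand beside the overlapping values of miR-1897-3p and the increase of miR-5097.

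Another unsuffixed member on all 12 arrays, miR-1897-5p, fell on each later day. Its signal was 18034, 15467, 10810 and 10784 units at day 1, 2170, 1738, 1698 and 1703 at day 3, and 1452, 1112, 842 and 626 at day 5. It fell by 3.55 on the log2 scale (SE 0.21, 11.7-fold, adjusted p = 7.78e-08, limma), and the days did not overlap.

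The other arm of the same hairpin, miR-1897-3p, gave 568, 590, 599 and 552 units at day 1, 569, 442, 452 and 462 at day 3, and 759, 508, 586 and 444 at day 5. Its days 1 and 5 overlapped (difference 0.33 on the log2 scale, SE 0.13, adjusted p = 0.0379, limma, and -0.04 without normalization). Within an array the normalized difference of the 5p arm from the 3p arm thus moved by -3.88 on the log2 scale between days 1 and 5 (p = 0.0286 in a two-sided exact permutation test, which with 4 against 4 arrays can give none smaller, and 0.0857 after Benjamini-Hochberg adjustment over the 3 hairpins with both arms detected). The 2 probes of each arm moved alike, by -3.82 and -3.78 (log2, not normalized) for 5p and by -0.01 and -0.01 for 3p.

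Neither arm of miR-1839 was called, and each arm's days 1 and 5 overlapped, with day 5 minus day 1 differences of 0.19 for 5p and -0.13 for 3p and a change in the difference between arms of 0.32 (log2, exact permutation p = 0.171). Its 5p arm gave 336, 311, 378 and 258 units at day 1 and 388, 308, 326 and 211 at day 5, and its 3p arm 348, 245, 311 and 314 units against 272, 219, 188 and 223. For miR-1894 the 5p arm was detected on 7 arrays and scattered from -18.8 to 809 units at day 5, so the arms could not be compared closely (change 2.0 on the log2 scale, exact permutation p = 0.6).

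A group of unsuffixed members was bright at day 1 and near the detection limit by day 5. miR-1306-3p gave 8285, 7322, 4774 and 5233 units at day 1, 589, 463, 474 and 505 at day 3, and 327, 207, 250 and 154 at day 5, where it was detected on 3 of 4 arrays. It fell by 4.54 on the log2 scale (SE 0.21, 23.3-fold, adjusted p = 1.27e-08, limma), with each day below the one before. Its level and the Dgcr8 transcript whose gene bounds hold it were not measured together here, since the array carries only miRNAs.

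miR-3474 gave 5952, 6216, 2822 and 3590 units at day 1 and no more than 49.8 units on any array of days 3 and 5, where it was not detected. Its day 1 level was at least 96.1-fold above day 5 when the floor is the lowest detected signal of an array, and at least 35.9-fold above with the 5th percentile of detected signals as the floor (adjusted p = 2.53e-05, limma). By the first and the second floor, day 1 was at least 22.9- and 8.55-fold above day 5 for miR-1967 (834 to 1257 units at day 1, adjusted p = 0.000165, limma) and at least 10.6- and 7.66-fold for miR-3107 (674 to 1066 units, adjusted p = 3.86e-06, limma). The bounds were 9.29- and 2.79-fold for miR-1966 (216 to 444 units, adjusted p = 6.2e-07, limma) and 6.79- and 4.39-fold for miR-1940 (443 to 643 units, adjusted p = 0.00718, limma). These 5 were not detected at either later day, and bounds set no order among them. The bounds hold within the main fit only. Under other processing the day 5 minus day 1 difference (log2) was as small as -3.79 for miR-3474 and -1.99 for miR-1967. It was as small as -1.60 for miR-3107 and -1.13 for miR-1966.

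miR-1896, miR-1894-3p and miR-1892 ran a like course, each detected on 11 arrays. They gave 2876 to 4954, 3023 to 5019 and 3583 to 5370 units at day 1 and 146 to 304, 104 to 430 and 243 to 681 units at day 5. The falls were 3.39 (SE 0.22), 3.40 (SE 0.31) and 2.96 (SE 0.28) on the log2 scale, or 10.5-, 10.6- and 7.81-fold, and in each case the lowest day 5 array was replicate 4.

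miR-2137 gave 3698, 3133, 3136 and 3390 units at day 1, 642, 537, 496 and 527 at day 3, and 581, 444, 557 and 369 at day 5. It fell by 2.40 on the log2 scale (SE 0.13, 5.3-fold, adjusted p = 2.74e-08, limma) with no overlap between days 1 and 5. miR-1895 fell by 1.43 (SE 0.22, adjusted p = 0.000158) and miR-1187, detected on 11 arrays, by 1.86 (SE 0.22, adjusted p = 2.35e-05), both by limma.

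miR-3472 (fall of 4.16 on the log2 scale, SE 0.47), miR-3099 (3.41, SE 0.63), miR-3470a (3.1, SE 0.28) and miR-2182 (2.70, SE 0.46) fell from day 1 signals of 384 to 2342 units, and each missed detection on at least 1 later array. For these the fitted fall rests partly on values at or below background. The call held in every fit that included it for miR-3470a, but not for miR-3472, miR-3099 and miR-2182. With no filter on detection the adjusted p (limma) was 0.0142 for miR-3472, 0.0502 for miR-3099 and 0.0135 for miR-2182, and for miR-3099 it was 0.0108 to 0.0213 under the 3 other scalings tried.

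Some unsuffixed members on all arrays were not called. miR-1198-5p gave 217 to 299 units at day 1, 112 to 165 at day 3 and 154 to 270 at day 5 (day 5 minus day 1 0.22 on the log2 scale, SE 0.15, adjusted p = 0.204, limma). miR-2861, for which a role in osteoblast differentiation has been described, gave 2923 to 3561 units at day 1, 962 to 1081 at day 3 and 830 to 1816 at day 5. Its normalized day 5 minus day 1 difference was -0.74 (SE 0.25, adjusted p = 0.0218, limma), with overlap after normalization though not before it. The call depended on the scaling: the difference was -1.37 without normalization (adjusted p = 0.000407, limma) and -1.38 with 75th percentile scaling (adjusted p = 0.000437, limma). Without day 5 replicate 3 it was -0.94 (adjusted p = 0.0039, limma), still short of 2-fold. After quantile normalization miR-1949 fell by 0.58 (log2, SE 0.11, adjusted p = 0.000664, limma), short of 2-fold, and with 75th percentile scaling by 1.05, past it, from 5053 to 6619 units at day 1 to 2435 to 3149 at day 5.

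miR-1904 was marked by its spread between arrays, with replicate 1 the highest at each day, at 16957 units at day 1, 8859 at day 3 and 12169 at day 5, against 6133 to 9076, 2699 to 3334 and 2074 to 4182 on the other arrays of those days. Its difference of -0.75 between days 5 and 1 had an SE of 0.45 (adjusted p = 0.158, limma). Replicate 1 held the first place of its slide row at each day.

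Besides miR-5097, the members called higher were miR-1983 and miR-1981. miR-1983 gave -11.7, 35.2, 26.6 and 6.63 units at day 1, where no array detected it, 156, 113, 124 and 138 at day 3, and 176, 165, 106 and 48.3 at day 5, where 3 arrays did. In the main fit day 5 was at least 1.90-fold above day 1 with the 5th percentile of detected signals as the floor (adjusted p = 2.26e-05, limma). Under other processing the day 5 minus day 1 difference was as small as 0.73 (log2). Each day 5 array lay above each day 1 array. miR-1981 was detected once, its unscaled signals of days 1 and 5 overlapped, and its call rests on values near background.

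The stretch paired by the longest probe was richer in G in members that fell. Its median G content was 46.7% in the 29 members called lower at day 5, 35.4% in the 24 tested and not called, 28.6% in the 3 called higher and 28.6% in the 57 never detected. The same held for other names, with a median of 44.4% in 46 miRNAs called lower, 25% in 78 called higher and 25% in 154 called neither. Across the 25 members on all arrays the G content and the day 5 minus day 1 difference had a Spearman's rho of -0.68, and across the 123 other miRNAs on all arrays -0.26. Over all 56 members tested it was -0.42, and over the 278 other miRNAs tested -0.28. These are descriptions across miRNAs that share the same arrays and labelling, and whether the base composition of the probes bears on the signal was not tested.

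**Figure D5:**
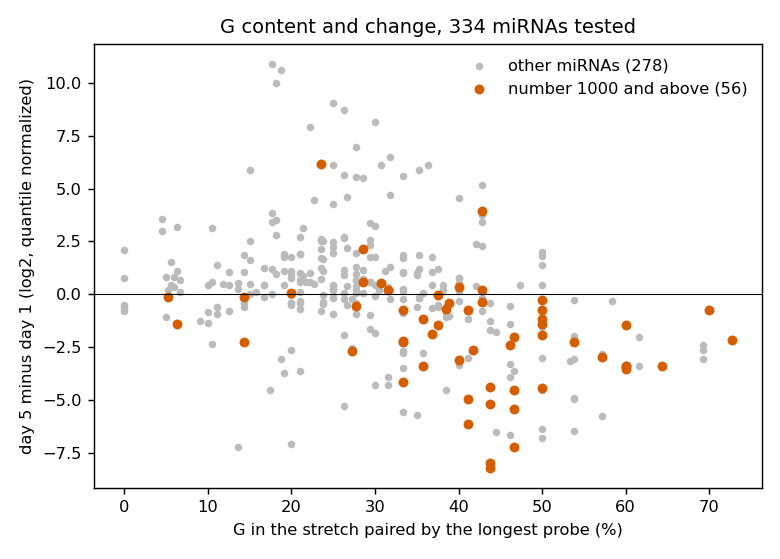
G content of the stretch paired by the longest probe, in percent (x axis), against the day 5 minus day 1 difference on the log2 scale after quantile normalization (y axis), for the 56 members tested (orange) and the 278 other miRNAs tested (grey), 1 point each. Members with 40% G or more lie mostly below 0, as do the grey points at the right.

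miRNAs listed as markers of other cell types moved over the same days. The erythroid markers found on the array were 2 of 4 listed, miR-451 and miR-144, and their summed signal ran from 29020 to 57393 units at day 1, 810 to 1771 at day 3 and 124 to 295 at day 5. miR-126-3p, listed as megakaryocytic, ran from 608 to 1337 units at day 1 and reached at most 47.1 at day 3 and 40.1 at day 5. The lymphoid markers were miR-150, miR-181a and miR-181b, of which miR-150 was detected on 4 arrays. Their summed signal was 2471 to 3336 units at day 1, 1267 to 1525 at day 3 and 1594 to 2026 at day 5. Between days 1 and 5 the mean of miR-181b did not fall with the sum, at 1112 units at day 1 and 1149 at day 5, while those of miR-150 and miR-181a fell. miR-223, listed as granulocytic, stood at 82084 to 85627 units at day 1, 39484 to 47670 at day 3 and 55476 to 62758 at day 5. Its day 1 values lay at the level of the saturated miR-1224 and miR-2138_v15.0, so the size of its change is not exact. Whether its signal came from granulocytes or from the cultured myeloid precursors themselves was not tested. The 5 stromal markers were miR-214, miR-145, miR-143 and both arms of miR-199a. Between days 1 and 5 their sum ran the other way. It was 494 to 896 units at day 1, 403 to 529 at day 3 and 2432 to 3545 at day 5. Among the stromal markers miR-145, detected on 1 array, did not rise, with a mean of 90.5 units at day 1 and 47.7 at day 5. Whether the cells these markers stand for had a part in the falls and rises of the members was not tested.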

How the data were processed

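Total RNA of 12 osteoclast cultures (4 per day) was labelled from 200 ng and hybridised to Agilent mouse miRNA arrays. Per the file headers, the deposited intensity values came from Agilent Feature Extraction 9.5.3.1, which subtracted background, summed the probes of a miRNA and marked detected and saturated features. The authors also deposited log2 values after quantile normalization, used here as an alternative. Depth has no counterpart on arrays, and the 4 arrays per day limit the precision.

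Entries marked detected on 1 array or more (334) were kept, and their signals were scaled by quantiles, floored at 1 (9.28% of values) and put on the log2 scale. Days were compared with limma 3.58.1 in R 4.3.3 (moderated F test and contrasts, 1 fit over 12 arrays, no covariates), with Benjamini-Hochberg adjusted p under 0.01 and a difference over 2-fold, after the design of the study's own test. The scripts were tested on simulated data. Single differences were also tested by exact permutation, where 4 against 4 arrays cannot go below 0.0286. Against a day undetected or saturated on all 4 arrays, single members are given as bounds. All bounds hold within the main fit only, since other processing gave smaller differences for some members.

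Named in the text are members detected on all 4 arrays of a day and called over time (up to 25 by the size of the day 5 minus day 1 difference), all members on 12 arrays, detected suffixed members and hairpins with both arms detected. miR-1940, miR-1981 and those given for detection alone were named after their values were seen. The members and lists were chosen with earlier results of these data known. Alternatives were other filters, scalings, floors, background corrections, thresholds, analysis of variance, a replicate block and leaving out each array. The base composition of probes was looked at after the values were seen.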

Additional observations from a re-analysis of the deposited data

Results flagged for a closer look

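Within the 4 arrays of a day, 28 of 117 groups of normalized log2 values among the named members held 1 array far from the other 3. Chance gives about 1 in 20 such groups, and quantile normalization with tied values gives some of them by making the other 3 arrays equal.

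Day 5 replicate 4 was the low array for miR-3474 (0, others 4.49 to 4.83), miR-3472 (4.33, others 6.42 to 6.67), miR-1894-3p (6.81), miR-1896 (7.12), miR-1892 (7.62), miR-1187 (7.74), miR-1839-5p (7.47) and miR-5097 (10.85, others 11.57 to 11.59). That array also had the fewest miRNAs detected (186) and the highest median signal over local background among detected miRNAs (16.9, others of day 5 6.80 to 8.17). Their part in these values was not tested.

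On day 1 arrays, replicate 2 was high for miR-1983 (3.52, others 0) and miR-1892 (11.74) and low for miR-1894-5p (0, others 6.92 to 7.85). Replicate 3 was low for miR-1897-5p (13.11), miR-2182 (8.26) and miR-2138_v15.0 (16.01), and replicate 4 high for miR-2137 (11.52), miR-2145_v16.0 (14.92) and miR-2146_v15.0 (14.32).

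On day 3 arrays, replicate 1 was high for miR-1966 (2.90, others 0) and miR-1895 (11.02) and low for miR-2132_v15.0 (13.66) and miR-2140_v15.0 (15.45). Replicate 3 was high for miR-2138_v15.0 (15.07) and miR-1937b_v16.0 (16.34) and low for miR-2135_v15.0 (14.18), and replicate 4 was low for miR-3472 (6.87) and miR-2134_v15.0 (12.22) and high for miR-2146_v15.0 (13.98). On day 5, replicate 3 was high for miR-2138_v15.0 (14.63).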

How the results depend on the processing

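With miRNAs detected on all 12 arrays alone, 12 members were called over time, 12 between days 1 and 5, 7 between days 1 and 3 and 3 between days 3 and 5, with 25 members left to test. With the authors' values, which covered 35 members, the first 3 counts were 19, 19 and 16. Between days 3 and 5, scaling to the 75th percentile gave 10 calls and no normalization gave 1, and the cause was not tested. Every member called between days 3 and 5 was lower under each of these. Leaving out 1 array gave 29 to 34, 30 to 33, 22 to 27 and 5 to 7 calls, and 48 (without day 1 replicate 2) to 56 members detected, while asking for detection on all 12 arrays left 25. The samples were not treated as paired. Deviations of same-numbered arrays correlated from -0.44 to 0.70, and those of differently numbered arrays from -0.66 to 0.62. These ranges cannot settle whether the replicate numbers pair the samples. With the replicate number as a block the counts were 31, 32, 26 and 6. The share called among all miRNAs tested is given for the main fit only. The counts under other settings therefore do not place the members beside other miRNAs. The median of all tested miRNAs between days 5 and 1 was 0.11 (log2) after quantile scaling, -0.51 after percentile scaling and -0.50 without scaling, so small differences changed sign. With detection on all 12 arrays, the 75th percentile and no normalization in turn, miR-1198-5p was at -0.29, -0.23 and -0.22, miR-1839-5p at -0.38, -0.0855 and -0.0761, miR-1897-3p at -0.21, -0.0446 and -0.0353 and miR-1944_v16.0 at -0.0658, -0.19 and -0.18. Leaving out 1 array gave -0.0871 (day 1 replicate 2) to 0.25 for miR-1944_v16.0, also below 0 (-0.0443) without day 1 replicate 1, and -0.0946 to 0.0940 (day 1 replicate 4) for miR-2146_v15.0, also above 0 (0.0027) without day 5 replicate 4. miR-1839-3p was at 0.0326 with detection on all 4 arrays of a day, miR-1939_v16.0 at 0.12 from processed spot signals and 0.10 with normexp, and miR-1894-5p at 0.0054 with normexp. None of these 8 members was called. Of 1042 alternative values of single members, 999 kept their direction and side of the adjusted p limit. A further 8 no longer passed that limit, 15 newly passed it and 20 changed sign. The 2-fold limit was left out of these counts, so a call could change uncounted, as for miR-1949 with 75th percentile scaling. Signals near background limit what can be said of members seen on few arrays.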
